A study of Sus scrofa with 74 samples.

Results

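The troponins and tropomyosins of the skeletal muscle thin filament were described in longissimus dorsi, the loin muscle, of 74 F2 Duroc x Pietrain pigs. Members were 9 of the 6765 genes named on the array by probe sets with a single symbol: the slow fibre troponins TNNI1, TNNT1 and TNNC1, the fast fibre troponins TNNI2, TNNT3 and TNNC2, and the tropomyosins TPM1, TPM2 and TPM3. They were found as the probe sets of the Affymetrix Porcine Genome Array that the annotation gives to a single one of these symbols, which gave 16 out of 23999 once control probe sets were left out. Each troponin had 1 probe set, TPM1 and TPM3 had 3 each and TPM2 had 4, and no member symbol occurred in a probe set listed for several genes. A filter on the median kept the brighter 12000 probe sets, among them 15 of the 16 (a dim TPM1 probe set, Ssc.12185.1.A1_at, was left out).

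All animals belonged to 1 group: no treatment was given, the muscle was taken at slaughter, and 1 array was run per animal. According to the study's methods the population was free of the RYR1 mutation and the animals came from full-sib families, so that many of them were siblings, whereas every p-value here treats animals as independent. Family, sex, age and drip loss are not in the labels. The label numbers have a gap, and animals numbered 1 to 33 (24 animals, the lower block) and 60 to 114 (50 animals, the higher block) were compared as possible batches, since the labels do not say what the number stands for.

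Troponin is the calcium switch of striated muscle. TNNC1 and TNNC2 encode troponin C, which binds calcium, TNNI1 and TNNI2 encode troponin I, which holds actin and myosin apart at rest, and TNNT1 and TNNT3 encode troponin T, which ties the complex to tropomyosin. Tropomyosin lies along the actin filament as a coiled pair of chains, with TPM1 the alpha chain typical of fast fibres, TPM3 the alpha chain typical of slow fibres and TPM2 the beta chain found in both. Both TPM1 and TPM3 are also made as shorter forms in non-muscle cells. Pig longissimus is a mostly fast, glycolytic muscle.

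Values are log2 intensities, with all arrays brought to the same trimmed mean of 500. They rank animals for a probe set but cannot be set against the value of another probe set. Before scaling, the trimmed mean of an array, called its level below, ran from 50.3 to 122.9 (median 85.9) in the lower block and from 84.7 to 183.2 (median 132.6) in the higher block. The brightest probe sets followed this level only in part. For the 50 brightest the median slope of the deposited log2 value on the log2 level was 0.27, against 1.03 for ranks 1001 to 3000, where a slope of 1 means that a probe set followed its array. Among the members the slope was 0.12 for TNNC2, 0.15 for TNNT3, 0.26 for TPM1, 0.24 for TPM2, 0.31 for TNNI2 and 0.33 for TNNT1. It was 0.69 for TNNI1, 0.82 for TNNC1 and 1.02 for TPM3. Scaling therefore left the bright members falling with the level, with r of the scaled value on the level of -0.926 for TNNT3 and TNNC2, -0.893 for TPM1, -0.854 for TPM2, -0.703 for TNNI2 and -0.469 for TNNT1, but -0.205 for TNNI1, -0.135 for TNNC1 and 0.02 for TPM3 (block means removed, a description). For this reason most results are given without and with the level as a further term of the fit. Why bright probe sets followed the level less was not tested.

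**Figure D1:**
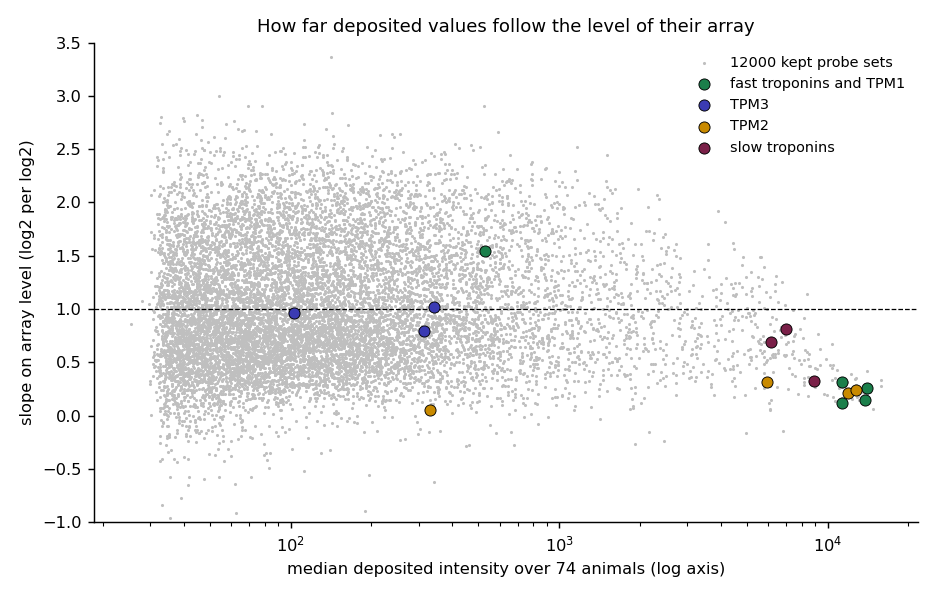
Slope of the deposited log2 intensity on the log2 array level (vertical axis) against the median deposited intensity over all animals (horizontal axis, log scale). Each kept probe set is 1 grey point, with the member probe sets in colour. 3 probe sets lie outside the vertical axis. The brightest probe sets of the fast members sit at the bright end with slopes far below 1, TNNI1 and TNNC1 closer to 1. The dimmer TPM1 probe set Ssc.13956.1.S1_at has a slope of 1.55.

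As a check of the tissue, 4 of 6 skeletal muscle markers had a kept probe set, with CKM at rank 12, MYLPF at rank 11, TTN at rank 54 and DES at rank 156 of the medians. Of 4 liver markers, which muscle should lack, 3 were kept, with a summed log2 value from 9.54 to 15.44. That sum had r = 0.003 with TNNI1 and 0.03 with TPM3. In the limma fit on TNNI2, which called 30.6% of all kept probe sets, ALB rose (r = 0.298, adjusted p = 0.0331). APOA1 and TTR did not pass in that fit. No pair of arrays was identical, and the highest correlation between arrays was 0.9705. In whole muscle, fewer fibres of a type and less RNA of that type per fibre cannot be told apart.

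The slow troponins had the wider spread between animals on the scaled values. TNNI1, the slow inhibitory subunit (Ssc.2609.1.S1_at), ran from 13.99 over a median of 14.86 to 15.22 in the lower block and from 13.09 over 14.73 to 15.46 in the higher block. TNNT1, the slow tropomyosin-binding subunit (Ssc.7535.1.S1_at), ran from 14.60 over 15.26 to 15.73 and from 13.15 over 15.27 to 15.90. TNNC1, the slow calcium-binding subunit (Ssc.3085.1.S1_at), ran from 14.38 over 15.10 to 15.46 and from 13.44 over 14.94 to 15.48. The blocks overlapped over most of their range for all 3 genes, and each had a tail of low animals. The SD lay between 0.27 and 0.39, with means of 14.75 ± 0.30 and 14.68 ± 0.39 for TNNI1, 15.18 ± 0.27 and 15.19 ± 0.37 for TNNT1, and 15.05 ± 0.27 and 14.89 ± 0.35 for TNNC1 (SD, n = 24 and 50).

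The animal labelled 114, whose array had the highest level of all, stood apart. It was the lowest of its block for TNNI1, TNNT1 and TNNC1, and the next lowest values were 13.78 for TNNI1 (animal 70), 14.76 for TNNT1 (animal 99) and 14.30 for TNNC1 (animal 70). The same animal was also lowest for TNNI2, TNNT3, TPM1 and TPM2, near the bottom for TNNC2 (15.11) and highest for TPM3 at 11.83. In the lower block, animal 29 was lowest for all 3 slow troponins (13.99, 14.60 and 14.38) but second highest for TNNI2 at 15.83, while animal 21 was second lowest for the 3 and also low for the fast members (TNNI2 15.30, TNNT3 15.69, TNNC2 15.41 and TPM1 15.63, ranks 3, 5, 4 and 4 from the bottom of 24). Results that rest on animal 114 are given with and without it.

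**Figure D2:**
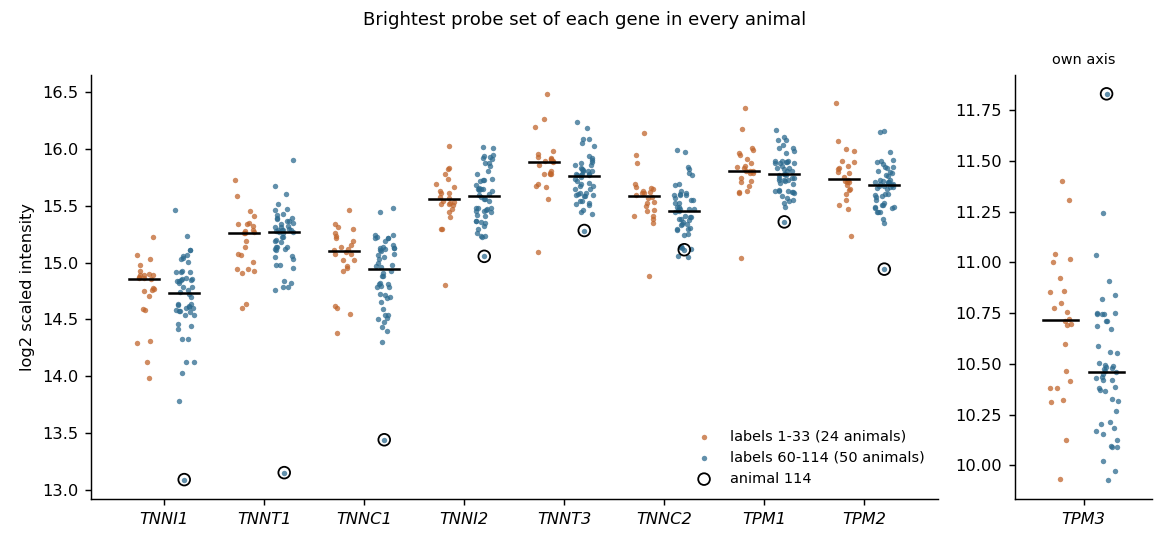
Log2 scaled intensity of the brightest probe set of each gene, 1 point per animal, by label block, with the block median as a black bar. TPM3 has an axis of its own. The circled animal 114 lies below all others for the slow troponins (TNNI1 13.09) and above all others for TPM3 (11.83).

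The 3 slow troponins rose and fell together from animal to animal. Pearson's r with block means removed was 0.948 for TNNI1 and TNNC1 (rho = 0.938), 0.896 for TNNI1 and TNNT1 (rho = 0.817) and 0.854 for TNNT1 and TNNC1 (rho = 0.780). Each pair passed the limma fit across all kept probe sets, with Benjamini-Hochberg adjusted p of 1.05e-26, 3.89e-20 and 8.29e-17. Within the blocks r was 0.951 and 0.947, 0.907 and 0.893, and 0.892 and 0.844 (lower and higher block). Removing the array level gave 0.949, 0.925 and 0.903, and leaving out animal 114 gave 0.928, 0.873 and 0.80. The same 3 pairs passed under every alternative run. As background, the fit on TNNI1 called 1.05% of all kept probe sets in either direction and the fit on TNNC1 1.25%, while that on TNNT1 called 11.5%. With the level as a term the shares were 1.82%, 2.66% and 2.25%.

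**Figure D3:**
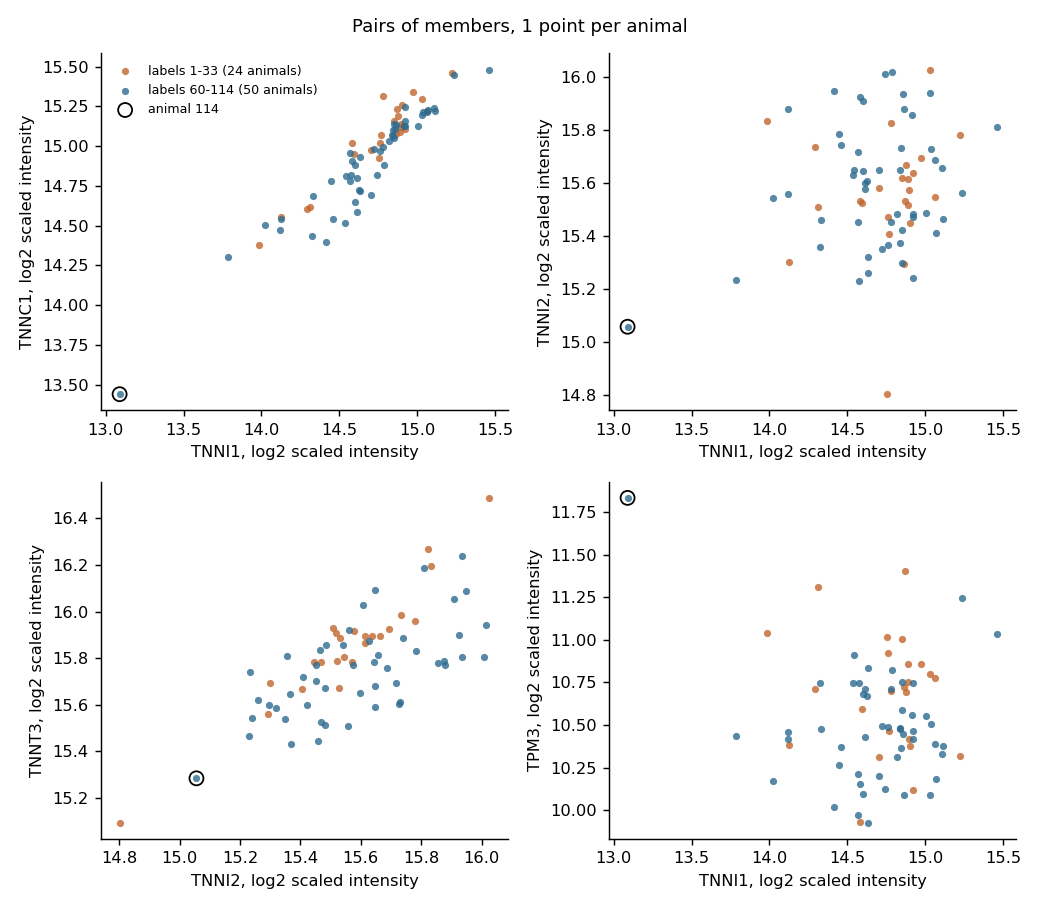
Log2 scaled intensities of 4 pairs of members, 1 point per animal, by label block, with animal 114 circled. TNNI1 and TNNC1 form a narrow band (r = 0.948), TNNI2 and TNNT3 a wider one (r = 0.757), TNNI1 and TNNI2 a cloud (r = 0.223), and TNNI1 and TPM3 a cloud with animal 114 alone in a corner (r = -0.172).

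Slow fibre genes outside the thin filament followed the slow troponins, and fast fibre genes did not once the array level was taken into account. Of 10 slow fibre partners with a kept probe set, 8 rose with TNNI1, namely ATP2A2, CASQ2, FHL1, HSPB6, MYBPC1, MYH7, MYL2 and MYL3 (median r of the list 0.72), and the same 8 rose with TNNT1 and with TNNC1. PPARGC1A, a coactivator of oxidative metabolism (r = 0.23 with TNNI1), and SMYD1, a muscle methyltransferase (r = -0.07), did not pass in any of the 3 fits. Under the level term the count stayed at 8 of 10 for each gene, and without animal 114 it was 7 of 10, CASQ2, the slow and cardiac calsequestrin, being the gene lost. Of 8 fast fibre partners 0 passed the limma fits on TNNI1 (median r = 0.12) and TNNC1, also 0 at an unadjusted p under 0.05, and 3, ENO3, MYL1 and MYLPF, rose with TNNT1. That last count was 0 of 8 under the level term, where 1 of 8 fell at an unadjusted p under 0.05 with each slow troponin. Leaving out animal 114 lowered the share of probe sets called with TNNI1 to 0.342%.

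By name, the genes closest to TNNI1 were ATP2A2, the slow fibre calcium pump (r = 0.847), MYL3, the slow essential light chain (0.816), and MYH7, the slow myosin heavy chain (0.782), over 74 animals. After removal of the level MYH7 led at 0.904, before ATP2A2 at 0.865 and MYL2 at 0.830. For TNNT1 they were MYH7 (0.919), MYL2, the slow regulatory light chain (0.900), and MYL3 (0.817). TNNC1 had MYL3 (0.822), ATP2A2 (0.820) and MYL2 (0.740). At the other end stood H2AFZ, a histone variant, at -0.503 with TNNI1 and -0.531 with TNNC1, and TMX1, a thioredoxin-like protein of the endoplasmic reticulum, at -0.603 with TNNT1. All of these passed in the limma fits. Without animal 114 other genes stood lowest, TMEM41B with TNNI1 (-0.421, not passed, limma adjusted p = 0.0971), OPTN with TNNT1 (-0.496, limma adjusted p = 0.00446) and TSPAN9 with TNNC1 (-0.424, limma adjusted p = 0.0467).

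Some partners on the thin filament itself rose with the slow troponins. Of 14 with a kept probe set, 2 rose with TNNI1, the actin-severing CFL2 (r = 0.54) and the actin anchor NRAP (0.44), and the same 2 rose with TNNC1. With TNNT1 5 rose, ACTC1, CFL2, NEB, NRAP and TNNT2. In either direction these fits called 1.05% (TNNI1), 1.25% (TNNC1) and 11.5% (TNNT1) of all kept probe sets. The shares with the level as a term were 1.82%, 2.66% and 2.25% in the same order. Without animal 114, 0 of 14 passed the limma fit on any of the 3 genes (2, 2 and 3 at an unadjusted p under 0.05 for TNNI1, TNNT1 and TNNC1). Once the level was a term, CFL2 and NRAP passed in all 3 fits, with TNNT2 and XIRP2 added for TNNI1 and ACTC1 and TNNT2 added for TNNT1. Of 5 smooth muscle markers SMTN alone rose with TNNI1 (r = 0.44), and did not without animal 114. Of 5 fibroblast markers 0 passed the limma fit on TNNI1, and 2 fell with it at an unadjusted p under 0.05. Of 4 kept endothelial markers VWF alone passed that fit, and it fell (r = -0.399, limma adjusted p = 0.0395).

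The fast members spread less than the slow troponins on the scaled values. TNNI2, the fast inhibitory subunit (Ssc.20584.2.S1_a_at), ran from 14.80 over 15.56 to 16.03 in the lower block and from 15.06 over 15.59 to 16.02 in the higher block. TNNT3, the fast tropomyosin-binding subunit (Ssc.18535.1.S1_a_at), ran from 15.09 over 15.89 to 16.49 and from 15.28 over 15.76 to 16.24. TNNC2, the fast calcium-binding subunit (Ssc.1283.1.S1_at), ran from 14.88 over 15.59 to 16.14 and from 15.05 over 15.46 to 15.997. The blocks overlapped almost wholly for all 3, and in the lower block the extreme animals were those with the extreme array levels. Animal 26, with the highest level of the lower block (122.9), was lowest for TNNI2, TNNT3, TNNC2, TPM1 and TPM2, and animal 23, with the lowest level (50.3), was highest for them. In the higher block animal 114, with the highest level, was lowest for TNNI2, TNNT3, TPM1 and TPM2. There TNNC2 was lowest in animal 67 and highest in animal 108, and TNNI2 was highest in animal 102. None of these 3 had the extreme level of the block. The brightest TPM1 probe set (Ssc.13956.2.S1_a_at) ran from 15.04 over 15.81 to 16.37 and from 15.36 over 15.78 to 16.17. As deposited, before scaling, TNNT3 had an SD of 0.055 and TNNC2 one of 0.067 on the log2 scale in the higher block, against 0.39 for TNNI1.

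TNNI2, TNNT3, TNNC2 and TPM1 moved together, but much of this was shared with the array level. All 6 pairs passed, with r from 0.696 to 0.964 (median 0.856). The fits on these genes, however, called 30.6% (TNNI2), 49.0% (TNNT3), 46.6% (TNNC2) and 44.5% (TPM1) of all kept probe sets. With the level as a term these shares dropped to 4.51%, 4.37%, 0.208% and 11.8%, and r over the 6 pairs ran from 0.167 to 0.802 (median 0.543). Then 4 of 6 pairs passed in the fits on both genes. They were TNNT3 with TPM1 (r = 0.802), TNNT3 with TNNC2 (0.748), TNNC2 with TPM1 (0.594) and TNNI2 with TPM1 (0.492). TNNI2 with TNNT3 (0.397) and with TNNC2 (0.167) did not. Measures of RNA quality, the log2 ratios of 3' to 5' signal of control transcripts, moved with members of both kinds. For the ef1a control r was 0.36 to 0.46 with these 4 members and 0.02 to 0.16 with the slow troponins. For the gapdh control it was 0.268, 0.260 and 0.224 with TNNI1, TNNT1 and TNNC1, and -0.215 with TNNT3 and -0.261 with TNNC2. Their part was not tested.

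**Figure D4:**
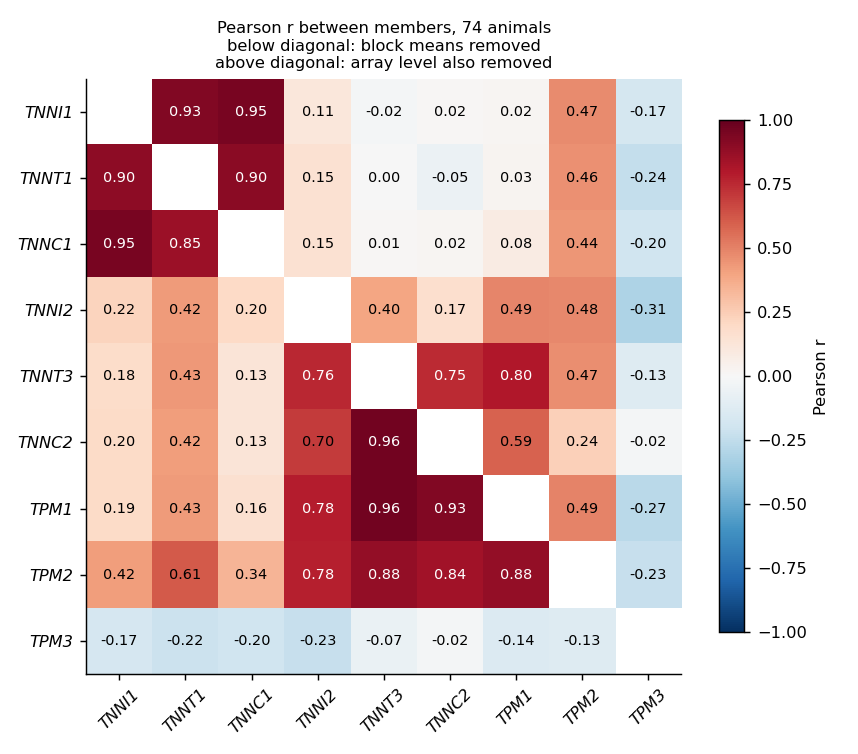
Pearson's r between the brightest probe sets of the 9 members over 74 animals. Block means were removed below the diagonal, and the array level as well above it. Slow troponins keep their values (0.854 to 0.948 below, 0.903 to 0.949 above), while those of the fast members pale (0.696 to 0.964 below, 0.167 to 0.802 above).

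TNNI2 behaved differently in the blocks once the level was removed. In the lower block r of TNNI2 was 0.871 with TNNT3, 0.797 with TNNC2 and 0.900 with TPM1, and in the higher block it was 0.0085, -0.235 and 0.250. The difference of the slopes passed for all 3 genes in the limma interaction fit, which called 0.25% of all kept probe sets. Without the level term 0 of 126 slopes between member probe sets passed in the limma fits (22 had an unadjusted p under 0.05), and leaving out animal 26 alone ended all 3 calls, with adjusted p of 0.383 (TNNT3), 0.50 (TNNC2) and 0.643 (TPM1).

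Fast fibre genes outside the thin filament followed the fast members. All 8 fast partners with a kept probe set rose with TNNI2, TNNT3, TNNC2 and TPM1 alike, and with the level as a term all 8 still rose with TNNT3 and TPM1, whereas 5 did with TNNI2 (ATP2A1, GPD1, MYH2, MYOZ1 and PFKM) and 4 with TNNC2 (ENO3, MYH2, MYL1 and MYLPF). Slow partners rose too before the level was removed, 4 of 10 with TNNI2 (FHL1, MYH7, MYL2 and MYL3). With TNNT3, TNNC2 and TPM1 5 of 10 rose (those 4 and HSPB6). Those fits called 30.6% (TNNI2) and 44.5% to 49.0% (the others) of all kept probe sets in either direction. These counts lie near those shares, but take in rising genes only. After removal of the level 0 of 10 passed the limma fit on any of the 4 genes (at an unadjusted p under 0.05, 0 with TNNI2, TNNT3 and TNNC2 and 1 with TPM1). Of the thin filament partners, TMOD4, the tropomodulin that caps the pointed end in skeletal muscle, and NEB, the giant nebulin that lies along the filament, rose with TNNI2, TNNT3 and TPM1 with and without the level term. Others of the 14 kept partners went both ways in the fits without the level. CAPZA2, TMOD1 and XIRP1 also rose with TNNI2, while LMOD3 fell (r = -0.328, limma adjusted p = 0.0199). NRAP and XIRP1 also rose with TPM1, while KLHL41 (-0.334), LMOD3 (-0.446) and XIRP2 (-0.338) fell.

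The genes closest to TNNT3 were GAPDH (r = 0.972), BUD23 (0.971) and MYL1, the fast essential light chain (0.967), and those closest to TNNC2 were GAPDH (0.972), ACTG1 (0.968) and the muscle enolase ENO3 (0.964). TPM1 stood closest to PYGM, muscle glycogen phosphorylase (0.962), MYL1 (0.958) and MYLPF, the fast regulatory light chain (0.955). TNNI2 had PGM1 (0.821), GPI (0.797) and PYGM (0.791), all enzymes of sugar phosphate or glycogen use. Removing the level gave other leaders for TNNI2, namely TMOD4 (0.663), NEB (0.613) and the ribosomal protein gene RPLP1 (0.612). TNNT3 then had BUD23 (0.796), PYGM (0.786) and the muscle phosphoglycerate mutase PGAM2 (0.783), TPM1 had PGM1 (0.811), PYGM (0.793) and PGAM2 (0.777), and TNNC2 kept GAPDH (0.786), ACTG1 (0.781) and ENO3 (0.751). The lowest r was that of CANX with TNNI2 (-0.674) and of CHMP5 with TNNT3 (-0.798), TNNC2 (-0.779) and TPM1 (-0.741). Under the level term it was MRLC2 (-0.518), CTNNB1 (-0.536), INPP5A (-0.402, not passed, limma adjusted p = 0.110) and ABLIM1 (-0.610) in the same order.

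The slow and fast form of each troponin were set against each other, and so were the tropomyosins TPM3 and TPM1. For troponin I, TNNI1 and TNNI2, r was 0.223 (2-sided permutation p = 0.05865, rho = 0.128 with p = 0.2833) and 0.032 without the 2 animals farthest from the median of TNNI1. For troponin C, TNNC1 and TNNC2, r was 0.132 (permutation p = 0.2648, rho = 0.069 with p = 0.5676) and 0.046 without the 2 farthest. For troponin T, TNNT1 and TNNT3, it was positive at 0.434 (permutation p = 5e-05, rho = 0.419 with p = 0.00029) and 0.458 without the 2 farthest. That relation was gone with the array level removed, at -0.0009 (permutation p = 0.9932), where TNNI1 and TNNI2 had 0.113 (permutation p = 0.3501) and TNNC1 and TNNC2 0.018 (permutation p = 0.874). The tropomyosin pair, TPM3 and TPM1, had r = -0.137 (permutation p = 0.2493, rho = -0.070 with p = 0.5483), -0.118 without the 2 farthest, and -0.272 with the level removed (permutation p = 0.02231). With that term the pair passed in the limma fit on TPM1 (adjusted p = 0.0371) but not in the one on TPM3 (adjusted p = 0.146). These 4 pairs were tested, and of them the limma fits across all probe sets, without the level, passed TNNT1 with TNNT3 only (adjusted p = 0.00909 in the fit on TNNT1). Within the lower and the higher block r was 0.096 and 0.270 for troponin I, 0.257 and 0.533 for troponin T, 0.152 and 0.126 for troponin C and 0.053 and -0.265 for TPM3 and TPM1. Over all 12 pairs of a slow troponin with TNNI2, TNNT3, TNNC2 or TPM1, 4 passed, those of TNNT1 (r from 0.416 to 0.434), and without animal 114 2 of 12 did, TNNT1 with TNNT3 and with TNNC2. Under the level term 0 of 12 passed in limma, also at an unadjusted p under 0.05, and r ran from -0.05 to 0.15.

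The log2 ratio of slow to fast form within an array does not depend on the scaling of the array, and its spread was wide beside its difference between blocks. For TNNI1 to TNNI2 it was -0.81 ± 0.36 in the lower and -0.91 ± 0.40 in the higher block (SD, n = 24 and 50), a difference of 0.10 (SE 0.092, permutation p = 0.3123). For TNNT1 to TNNT3 it was -0.68 ± 0.32 and -0.55 ± 0.32, a difference of -0.13 (SE 0.079, permutation p = 0.1145). TNNC1 to TNNC2 had -0.53 ± 0.33 and -0.57 ± 0.39, a difference of 0.05 (SE 0.087, permutation p = 0.6232), and TPM3 to TPM1 had -5.13 ± 0.42 and -5.29 ± 0.42, a difference of 0.17 (SE 0.10, permutation p = 0.1175). Without the level as a term, 0 of these 4 tests of a ratio between blocks passed an unadjusted p of 0.05. Their r with the array level was 0.235, 0.133, 0.448 and 0.434 in the same order (block means removed, a description).

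The level as a further term changed this for 3 of the 4 ratios. TNNI1 to TNNI2 was then higher in the lower block by 0.32 (95% interval 0.033 to 0.605, permutation p = 0.02949), TNNC1 to TNNC2 by 0.45 (0.20 to 0.709, permutation p = 0.00066) and TPM3 to TPM1 by 0.61 (0.322 to 0.90, permutation p = 5e-05). TNNT1 to TNNT3 had -0.02 (-0.264 to 0.218, permutation p = 0.8509). Without animal 114 the 4 differences were 0.39, 0.54, 0.53 and 0.07 in this order, with permutation p of 0.00429, 1e-05, 0.00021 and 0.4384. That of TNNI1 to TNNI2 rested on single animals, with 0.25 without animal 26 (permutation p = 0.1048) and 0.28 without animal 113 (permutation p = 0.05583). Block and level ran together, and their parts in these ratios cannot be told apart.

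With the mean of all kept probe sets in place of the brightest, the difference for TPM3 to TPM1 was -0.49 (permutation p = 1e-05, the smallest these permutations can give), in the other direction, and -0.48 with the level as a term (permutation p = 0.00138). That mean takes in the dim TPM3 probe set described below.

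TPM2, the beta chain (brightest probe set Ssc.20571.2.S1_at), moved with members of both fibre types. It ran from 15.23 over 15.74 to 16.41 in the lower and from 14.94 over 15.68 to 16.16 in the higher block. With TNNI2, TNNT3, TNNC2 and TPM1 its r lay between 0.777 and 0.882, and 4 of 4 pairs passed, beside 44.9% of all kept probe sets in the fit on TPM2. With the level as a term that share was 2.93%, r lay between 0.242 and 0.494, and 1 of 4 passed, that with TNNI2 (0.479). With the slow troponins r was 0.612 (TNNT1), 0.416 (TNNI1) and 0.342 (TNNC1), and TNNT1 alone passed. Removing the level drew these 3 values together, to 0.461, 0.475 and 0.440, of which 0 passed in the limma fits on both genes, 3 passed in the fit on TPM2 alone, and 3 had an unadjusted p under 0.05 in both.

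In the higher block the r of TPM2 was 0.719 with TNNT1, 0.562 with TNNI1 and 0.415 with TNNC1, and in the lower block it was 0.376, 0.078 and 0.182, so that the values of the lower block were the smaller. With the level removed the higher block had 0.593, 0.626 and 0.542, and the lower block 0.140, 0.058 and 0.125. The limma interaction of these pairs with the block did not pass, so the blocks are not shown to differ. Without animal 114, r over all animals was 0.503, 0.262 and 0.165, and 0.298, 0.357 and 0.309 with the level removed as well. Of the slow partners 6 of 10 rose with TPM2 (FHL1, HSPB6, MYBPC1, MYH7, MYL2 and MYL3), 4 with the level as a term (MYBPC1, MYH7, MYL2 and MYL3) and 1, MYL2, with the level and without animal 114. Of the fast partners 8 of 8 rose, and 2, GPD1 and MYOZ1, with the level as a term. The fit on TPM2 called 44.9% of all kept probe sets in either direction, and 2.93% with the level as a term. The closest genes were the ribosomal protein genes RPS28 (0.886) and RPS29 (0.884) and PYGM (0.884), or RPS2 (0.678), FXYD7 (0.677) and RPL8 (0.640) with the level as a term. The lowest r was that of SEC63 (-0.748), and of ARFGEF2 (-0.531) with the level as a term.

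TPM3, the slow alpha chain by name, did not follow the slow troponins. Its brightest probe set (Ssc.1829.1.S2_at, rank 2393 of the medians) ran from 9.93 over 10.72 to 11.40 in the lower and from 9.93 over 10.46 to 11.83 in the higher block. With TNNI1, TNNT1 and TNNC1 r was -0.172, -0.216 and -0.196, and 0 of 3 pairs passed in limma, also at an unadjusted p under 0.05, while the fit on TPM3 called 30.6% of all kept probe sets. Without animal 114 these values were 0.094, 0.180 and 0.066, and 31.4% were called. With TNNI2, TNNT3, TNNC2 and TPM1 r lay between -0.23 and -0.02, and again 0 of 4 passed at either threshold. With the level as a term the fit called 34.7%, and r with the slow troponins lay between -0.236 and -0.172. With the fast members it was then -0.309 for TNNI2 and -0.272 for TPM1, and the pair with TNNI2 passed in the limma fit on 1 gene (adjusted p = 0.0408) but not in the other (adjusted p = 0.0955), with an unadjusted p under 0.05 in both.

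The genes that did follow TPM3 were TPM4, a tropomyosin of non-muscle cells, SH3BGRL3 and SRI. Their r was 0.783, 0.783 and 0.787, and with the level as a term SH3BGRL3 (0.829), the non-muscle cofilin CFL1 (0.791) and TPM4 (0.789) led. Without animal 114, TPM4 (0.758), SH3BGRL3 (0.748) and EMP3 (0.747) led. At the other end EIF4G2, a translation factor, had -0.679, and DCAF6 had -0.629 without animal 114. Some markers of other cells of the muscle moved with TPM3 as well, counted here without the level as a term. That fit called 30.6% of all kept probe sets in either direction, or 31.4% without animal 114. Of 5 smooth muscle markers ACTA2 (0.317), MYL9 (0.479) and TAGLN (0.456) rose with it, and all 5 did without animal 114. Of 5 fibroblast markers COL1A2 (0.452), DCN (0.436) and THY1 (0.730) rose, and DCN and THY1 without animal 114. Of 3 kept adipocyte markers (6 in the list) ADIPOQ (0.361) and FABP4 (0.335) rose, and all 3 did without animal 114. Of 2 kept leukocyte markers (6 in the list) CD14 (0.366) and CD163 (0.281) rose, CD14 alone without animal 114. Of 4 kept endothelial markers (5 in the list) PECAM1 (0.387) rose, with and without animal 114. Among muscle fibre markers, over all 74 animals, NCAM1 (0.367) rose, 1 of 2 kept markers of developing or regenerating fibres (6 in the list). TTN (-0.349) fell, as 1 of 4 kept skeletal muscle markers (6 in the list).

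The summed log2 level of the smooth muscle list ran from 13.55 to 14.98 in the lower and from 12.98 to 14.49 in the higher block, and that of the fibroblast list from 13.43 to 15.05 and from 13.61 to 14.81. Their r with TPM3 was 0.441 and 0.578, against 0.171 and -0.246 with TNNI1. The adipocyte list ran from 11.91 to 15.31 and from 11.42 to 15.15 (r = 0.342 with TPM3), the leukocyte list from 8.62 to 11.38 and from 8.86 to 11.44 (r = 0.341), and the endothelial list from 11.69 to 12.59 and from 10.84 to 12.51 (r = 0.364). The part of these cells in the TPM3 values was not tested. Among 10 slow partners 0 rose with TPM3 and 4 fell, ATP2A2, MYBPC1, MYL2 and PPARGC1A, beside 30.6% of all kept probe sets called in either direction. Without animal 114, 2 rose, CASQ2 and HSPB6, and 0 fell. Of the fast partners GPD1, MYOZ1 and PFKM fell, and PFKM alone without animal 114. On the thin filament TPM4 rose and 5 genes fell, KLHL41, NEB, NRAP, TMOD1 and TMOD4, of which NEB, TMOD1 and TMOD4 passed without animal 114 too.

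Probe sets named for the same tropomyosin did not all vary alike. For TPM2 the 3 brighter probe sets had r from 0.793 to 0.944 with each other, and the dimmer Ssc.9236.1.A1_at had 0.486 to 0.636 with them. For TPM3, Ssc.1829.1.S1_at and Ssc.1829.1.S2_at had r = 0.836, while Ssc.24590.1.S1_at had -0.034 and -0.004 with them. For TPM1, Ssc.13956.1.S1_at had -0.348 with the brightest probe set, or 0.022 with the array level removed, and the dim Ssc.12185.1.A1_at, which ran from 4.09 to 7.51 and from 3.11 to 7.88, had -0.129 with Ssc.13956.1.S1_at and 0.026 with the brightest. Which transcripts these probe sets read was not analysed here, so no TPM1 or TPM3 value can be given to the muscle form alone.

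The largest differences between blocks among the kept member probe sets were those of 2 dimmer ones. Ssc.9236.1.A1_at for TPM2 ran from 7.53 over 8.46 to 9.51 in the lower and from 8.82 over 10.66 to 11.90 in the higher block, so that the blocks overlapped only between 8.82 and 9.51. The difference was -2.15 log2 (lower minus higher, SE 0.154, limma adjusted p = 6.50e-21). Ssc.24590.1.S1_at for TPM3 ran from 4.51 over 7.51 to 9.10 and from 7.97 over 9.13 to 10.62, a difference of -1.73 (SE 0.201, limma adjusted p = 8.03e-12). With the array level as a term they were -2.71 and -1.75. The other probe sets of these genes did not share this: the 3 brighter TPM2 probe sets differed by 0.25, 0.21 and 0.10, and the brightest TPM3 probe set by 0.20 (limma adjusted p = 0.0412), with 0.22 without animal 114.

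**Figure D5:**
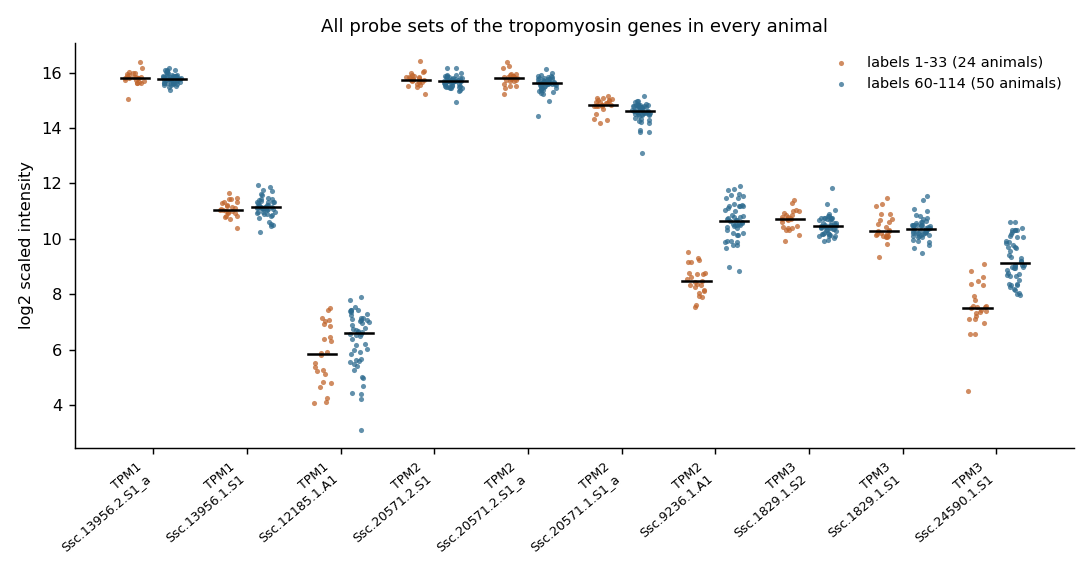
Log2 scaled intensity of every tropomyosin probe set, 1 point per animal, by label block, with the block median as a bar. Ssc.9236.1.A1_at (TPM2) and Ssc.24590.1.S1_at (TPM3) are lower in the lower block (log2 differences -2.15 and -1.73), while the brighter probe sets of the same genes overlap.

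Counted over the 15 kept member probe sets, 3 were higher in the lower block, Ssc.20571.1.S1_a_at and Ssc.20571.2.S1_a_at for TPM2 and Ssc.1829.1.S2_at for TPM3, beside 24.8% of all kept probe sets. The 2 dim probe sets were lower there, beside 36.6%. Of the 6 troponins 0 passed in the limma fit, and 1, TNNT3, had an unadjusted p under 0.05, with differences between -0.03 (TNNI2) and 0.16 (TNNC1, SE 0.081). These counts rest on the scaling. With the level as a term 1 was higher, Ssc.13956.1.S1_at for TPM1 (0.26, limma adjusted p = 0.0481), beside 22.6%, and 9 were lower, beside 34.8%. Among the 9 were TNNC2 (-0.40), TNNI2 (-0.43), TNNT1 (-0.41) and TNNT3 (-0.38), while TNNI1 (-0.11) and TNNC1 (0.05) did not pass. Block and array level ran together, with a difference of -0.59 in the mean log2 level, and their parts in the differences of the bright members cannot be told apart. The 3' to 5' log2 ratio of the gapdh control was 0.150 ± 0.071 in the lower and 0.204 ± 0.056 in the higher block (SD, n = 24 and 50), and that of ef1a 0.558 ± 0.219 and 0.754 ± 0.273. Of the 3 kept liver markers APOA1 (0.79, limma adjusted p = 6.25e-05) and TTR (1.39, limma adjusted p = 0.00739) were higher in the lower block. The part of RNA quality and of such markers in the block differences was not tested.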

How the data were processed

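Total RNA of 1 muscle sample per animal was hybridised to 1 array. The deposited values are linear intensities of 24123 probe sets, 124 of them controls. The methods of the authors name GCOS 1.1.1, per the labels too, with MAS5 calls and PLIER; for which of them gave the deposited intensity, the sources used here name none. No depth applies to arrays, and the number of animals limits the precision.

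Arrays were brought to a common trimmed mean of 500 (2% left out at either end), a floor of 1 was set and log2 was taken. The 12000 probe sets with the higher median (139.4 or more) were kept. The annotation gave 10069 probe sets 1 symbol, 198 several and 13732 none. A gene's brightest probe set stood for it. Block differences and co-variation with each member (standardised within blocks, block as a term) were fitted with limma 3.58.1 in R 4.3.3 over all kept probe sets, with Benjamini-Hochberg adjustment at 0.05. A pair of members passed only when it did so in the fits on both genes. For single genes r is that of the fit, and between members it is Pearson's r with block means removed. Permutation tests were 2-sided with 100000 draws within blocks (over all animals for the ratios, of residuals from the level where it was a term). The scripts were tested on simulated data.

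Named genes were all member probe sets, for each member the 3 genes of highest and the 1 of lowest r among single-symbol probe sets, and genes of lists where 5 or fewer were counted, with their alternatives. Members and lists were chosen with earlier results of these data known. DCAF6, EMP3, TMEM41B, OPTN and TSPAN9, and those list genes named in larger counts, were named by the same rule applied without animal 114 or after their values were seen. Alternatives were the deposited values, quantile normalization, a pseudocount of 16, no filter, no block term, each block alone, the mean of all kept probe sets, and the array level as a term. Leaving out animals, and the level within blocks and for ratios, were added after seeing the data.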

Additional observations from a re-analysis of the deposited data

Results flagged for a closer look

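With the array level as a term, the slope on TNNI2, in log2 units per SD of TNNI2 within a block, was steeper in the lower than in the higher block for 3 fast members. The difference was 0.182 for TNNT3 (SE 0.0342, limma adjusted p = 0.00171), 0.163 for TNNC2 (SE 0.0375, limma adjusted p = 0.0283) and 0.161 for TPM1 (SE 0.0359, limma adjusted p = 0.0222). Each was tested by the interaction term itself. Without animal 26, the array of the highest level in the lower block, the differences were 0.130, 0.114 and 0.096 and none passed. The call for TNNC2 was also lost without animal 18 (adjusted p = 0.0518), animal 19 (0.0671) or animal 28 (0.0554) in the same limma fit.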

How the results depend on the processing

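The 3 pairs of slow troponins passed under every alternative. The direction of block differences followed the scaling. With the values as deposited, the median of all kept probe sets was -0.65. There 15 member probe sets were lower in the lower block and 0 higher. Of all 12000 kept probe sets 10047 were lower and 249 higher. The differences turned to -0.47 for TNNC2, -0.47 for TNNT3, -0.56 for TPM1 (Ssc.13956.2.S1_a_at), -0.52 for TNNI1 and -0.42 for TNNC1. For TPM3 they were -0.57 and -0.39 (Ssc.1829.1.S1_at and Ssc.1829.1.S2_at). For TPM2 they were -0.33, -0.38 and -0.49 (Ssc.20571.1.S1_a_at, Ssc.20571.2.S1_a_at and Ssc.20571.2.S1_at). With the array level as a term (median -0.11, against -0.07 without it) 9 were lower and 1 higher. The shares of all kept probe sets were 34.8% and 22.6%. The differences turned to -0.40 for TNNC2, -0.38 for TNNT3, -0.40 for TPM1 (Ssc.13956.2.S1_a_at) and 0.26 for TPM1 (Ssc.13956.1.S1_at). For the 3 TPM2 probe sets they were -0.15, -0.26 and -0.35.

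Pairs of fast members that passed were 3 of 6 as deposited, 0 with quantile normalization and 0 in the higher block alone with the level. Slow with fast pairs were 2 of 12 as deposited (TNNC1 with TNNI2 and with TPM1), 2 others without animal 114 (TNNT1 with TNNT3 and with TNNC2), and 0 with quantile normalization, with the level, in the lower block alone, and in each block with the level. TPM2 with slow troponins gave 3 of 3 as deposited, 2 without the block term, 0 with the level, 0 in the lower block alone with or without the level, and 2 and 3 in the higher block alone without and with the level. TPM2 with fast members gave 0 of 4 with quantile normalization, 1 with the level and 0 in each block alone with the level. For TNNT1 and TNNT3 r was 0.098 as deposited, -0.037 with quantile normalization and -0.00092 with the level removed. For TNNI1 and TNNI2 it was 0.267 as deposited (permutation p = 0.02291), for TNNC1 and TNNC2 -0.197 with quantile normalization, and for TPM3 and TPM1 0.154 as deposited, 0.157 with the mean of all kept probe sets and -0.272 with the level removed. The log2 ratio of TPM3 to TPM1 with that mean was -0.49. With the level as a term the ratios were 0.32 for TNNI1 to TNNI2, 0.45 for TNNC1 to TNNC2 and 0.61 for TPM3 to TPM1. Slopes between members that differed between blocks numbered 2 with quantile normalization and 3 with the level as terms. The cause was not tested. No paired analysis was possible because there was 1 group.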
